A study of Saccharomyces cerevisiae with 12 samples.

Results

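The small (40S) subunit of the yeast cytosolic ribosome is built from 18S ribosomal RNA and a set of proteins encoded by the RPS genes. These genes were taken from a table of ribosome footprint counts as every row whose R64 gene name was RPS, a number and optionally A or B, which gave 56 of 6697 genes. All 56 passed the filter on low counts. Of the 56 genes, 8 have a single copy, RPS2, RPS3 and RPS12 among them, and the other 48 form 24 pairs of A and B copies.

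Ribosome footprints are mRNA pieces shielded from nuclease by the ribosomes that translate them, and they were counted in Saccharomyces cerevisiae W303 Ade+. Every library came from cells that carried mCherry-tagged Ded1, a DEAD-box RNA helicase that acts in translation initiation. The strain called WT here had the genotype Ded1-mCherry and the strain called IDRm had Ded1_IDRm-mCherry, so that no group held untagged Ded1. Both strains were grown at 30 °C and held for 10 min at 30, 40 or 42 °C, with 2 libraries in each of the 6 groups. Pre-cultures were grown in duplicate, and main cultures were split over the temperatures, so libraries of different temperatures may share a culture. The labels do not say which libraries do. The edgeR p-values below rest on the spread between duplicates together with variance shared over genes. That shared part had a median of 25.5 degrees of freedom, against 6 from the libraries. A footprint count combines mRNA abundance and ribosome occupancy, which cannot be told apart without matched RNA measurements, and all values are relative to the other genes of a library.

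Ribosomal proteins of the small subunit are joined to the rRNA in the nucleolus, nucleus and cytoplasm, and the finished subunit binds initiator tRNA, scans the mRNA and reads its codons. In yeast their genes are among the most strongly expressed, and their transcription is driven largely by Rap1 with Fhl1, Ifh1 and Sfp1, under the control of nutrient and stress signalling through TORC1 and protein kinase A. Transient repression of ribosomal protein genes after a heat shift is a textbook part of the yeast environmental stress response. Most are present as a pair of copies left by an ancient genome duplication.

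The sequences of 3 pairs show where reads can tell the copies apart. Sequence shared between copies was measured as the share of the 28-base words of a coding sequence that also occur in another coding sequence. That share ran from 0% for RPS27A to 81.1% for RPS6A and RPS6B, and it was at least 20% in 22 members, which belong to 11 pairs. For these members the split of reads between the copies is uncertain, because how the authors treated reads that match several places is not given in the sources used here. In the windows below, read from the R64 reference on the coding strand, capitals mark the bases that differ between the copies. Each window is the 60-base stretch of the last coding exon with the most differences, so the windows overstate how far the copies differ. The RPS21 windows hold 10 differences in 60 bases, the RPS23 windows 4 and the RPS6 windows 2. Whole coding sequences differ at 24 bases in RPS21 (264 bases long), 15 in RPS23 (438) and 6 in RPS6 (711).
RPS21A, chrXI:552075-552134, plus strand: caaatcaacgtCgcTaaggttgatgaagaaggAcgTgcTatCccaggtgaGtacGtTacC
RPS21B, chrX:156658-156717, minus strand: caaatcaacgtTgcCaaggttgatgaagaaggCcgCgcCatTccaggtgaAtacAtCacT
RPS23A, chrVII:727569-727628, plus strand: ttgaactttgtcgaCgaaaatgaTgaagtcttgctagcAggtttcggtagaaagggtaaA
RPS23B, chrXVI:795606-795665, plus strand: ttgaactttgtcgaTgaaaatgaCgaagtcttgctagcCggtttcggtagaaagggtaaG
RPS6A, chrXVI:377861-377920, minus strand: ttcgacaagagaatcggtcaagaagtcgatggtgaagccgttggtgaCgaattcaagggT
RPS6B, chrII:592282-592341, minus strand: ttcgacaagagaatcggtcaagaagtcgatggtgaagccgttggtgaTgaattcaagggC

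The libraries held 3429950 to 7851819 counts. The heat shock genes HSP104, SSA4, HSP26 and HSP12 were higher at 40 °C than at 30 °C in both strains, with a median log2 fold change of 6.62 in WT. By group means they were lower at 42 °C than at 40 °C in both strains, though above 30 °C. In CPM (counts relative to the scaled library total), the WT means at 40 and 42 °C were 28727 and 12898 for HSP104 and 24153 and 10000 for SSA4. For HSP26 they were 8113 and 2288, and for HSP12 2745 and 155. The second WT library at 30 °C stood apart from the first in these genes, with 115 against 27.7 CPM for HSP26, a small heat shock protein. Among the RPS genes the same library was lower by a median of -0.07 on the log2 scale, and the part of that difference in the results was not tested. The number of members called between 40 and 30 °C in WT was 55 without either library.

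RPS genes took 8.53% and 8.32% of all counts in the 30 °C libraries of WT. At 40 °C this share was 3.17% and 3.32%, while at 42 °C it was 7.59% and 7.73%. The IDRm libraries had 8.39% and 8.34% when kept at 30 °C. Heated to 40 °C they had 2.48% and 2.42%, and heated to 42 °C they had 6.11% and 6.13%. The share was thus lowest at 40 °C in both strains, and at 40 and 42 °C both IDRm libraries lay below both WT libraries. The group means were 8.42% ± 0.153 (SD, n = 2) at 30 °C, 3.25% ± 0.104 at 40 °C and 7.66% ± 0.0965 at 42 °C in WT, and 8.37% ± 0.0388, 2.45% ± 0.0462 and 6.12% ± 0.0162 in IDRm. Genes of the large subunit took 3.81% of the counts in WT and 3.06% in IDRm at 40 °C, against 10.03% and 9.90% at 30 °C.

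**Figure D1:**
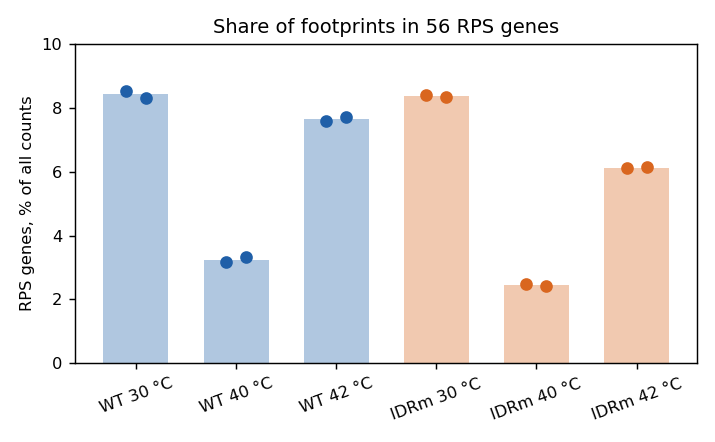
Share of all footprint counts in the 56 RPS genes, in percent (vertical axis), for each strain and temperature; bars are means of 2 libraries and points are the libraries. The share fell to 3.25% in WT and 2.45% in IDRm at 40 °C, and was 7.66% in WT and 6.12% in IDRm at 42 °C.

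After 10 min at 40 °C in WT, footprints on nearly the whole small subunit fell. By edgeR's quasi-likelihood test with Benjamini-Hochberg adjustment over all 5719 tested genes, 55 of 56 members were lower than at 30 °C at an adjusted p of at most 0.05 and none was higher. Of all tested genes, 75.5% were called, 36.1% higher and 39.5% lower. The median log2 fold change of the members was -1.12, against -0.02 over all tested genes, and 31 members fell at least 2-fold. The share of all tested genes that fell at least 2-fold is not given. The 3 lowest were both copies of RPS9, whose protein lies near the mRNA entry channel and affects decoding accuracy, and RPS0B, which encodes a protein needed for 18S rRNA maturation.

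RPS9A (YPL081W, chrXVI:404950-406044, 1 coding intron) was at 539 and 470 CPM at 30 °C in WT and at 93.0 and 104 CPM at 40 °C. RPS9B (YBR189W, chrII:604508-605508) was at 2506 and 2396 CPM at 30 °C and at 500 and 522 CPM at 40 °C. Both copies were far below their 30 °C range, by log2 changes of -2.35 ± 0.08 (SE, adjusted p 3.41e-22) and -2.26 ± 0.07 (adjusted p 2.92e-24) in the edgeR fit. RPS0B (YLR048W, chrXII:242232-243349) was at 2559 and 2283 CPM at 30 °C and at 501 and 562 CPM at 40 °C, a log2 change of -2.19 ± 0.08 (adjusted p 2.49e-22). These 3 genes share 7.10% to 13.9% of their 28-base words with another coding sequence.

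At the other end, RPS14B (YJL191W, chrX:73787-74611) was the one member not called at 40 °C in WT. It encodes a copy of a platform protein, and shares 23.1% of its 28-base words with RPS14A. RPS14B was at 244 and 236 CPM at 30 °C and at 259 and 269 CPM at 40 °C, a log2 difference of 0.13 ± 0.08 (edgeR adjusted p 0.131), although the groups did not overlap. RPS22A (YJL190C, chrX:74910-75302), the next gene named here along that chromosome and on the opposite strand, fell from 2062 and 2017 CPM to 594 and 607 CPM, by -1.77 ± 0.07 (adjusted p 2.64e-21). Its partner RPS22B (YLR367W, chrXII:856442-857317), which carries the snoRNA SNR44 within an intron, went from 360 and 352 CPM to 286 and 301 CPM, by -0.28 ± 0.07 (adjusted p 0.000943). RPS25B, a copy of a head protein, fell by -0.35 ± 0.07 (adjusted p 2.31e-05).

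Genes for proteins along the mRNA path fell too. RPS3 (YNL178W, chrXIV:302680-303402), whose protein forms part of the mRNA entry channel, was at 4251 and 4143 CPM at 30 °C and at 2035 and 2198 CPM at 40 °C in WT, a change of -0.99 ± 0.07 (edgeR adjusted p 7.1e-15). RPS2 (YGL123W, chrVII:277617-278381), also at the entry channel, went from 2302 and 2273 CPM to 1337 and 1478 CPM, by -0.70 ± 0.07 (adjusted p 3.28e-10). Both genes were lower in both 40 °C libraries than in either 30 °C library.

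The exit-side proteins encoded by RPS26 and RPS28 differed between copies. RPS26A went from 1999 and 1687 CPM to 1079 and 1155 CPM in WT at 40 °C, by -0.72 ± 0.07 (edgeR adjusted p 1.13e-10). RPS26B went from 692 and 608 CPM to 277 and 291 CPM, by -1.20 ± 0.07 (adjusted p 7.01e-16). Both RPS26 copies fell, with the B copy lower by value. RPS28A went from 982 and 911 CPM to 427 and 446 CPM, by -1.12 ± 0.07 (adjusted p 3.32e-15), and RPS28B from 528 and 501 CPM to 348 and 360 CPM, by -0.54 ± 0.07 (adjusted p 8.46e-08). RPS31 (YLR167W, chrXII:498947-499405), which is made as a fusion with ubiquitin and shares 11.3% of its 28-base words with other genes, went from 2724 and 2815 CPM to 797 CPM in both libraries, by -1.80 ± 0.07 (adjusted p 7.04e-21).

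**Figure D2:**
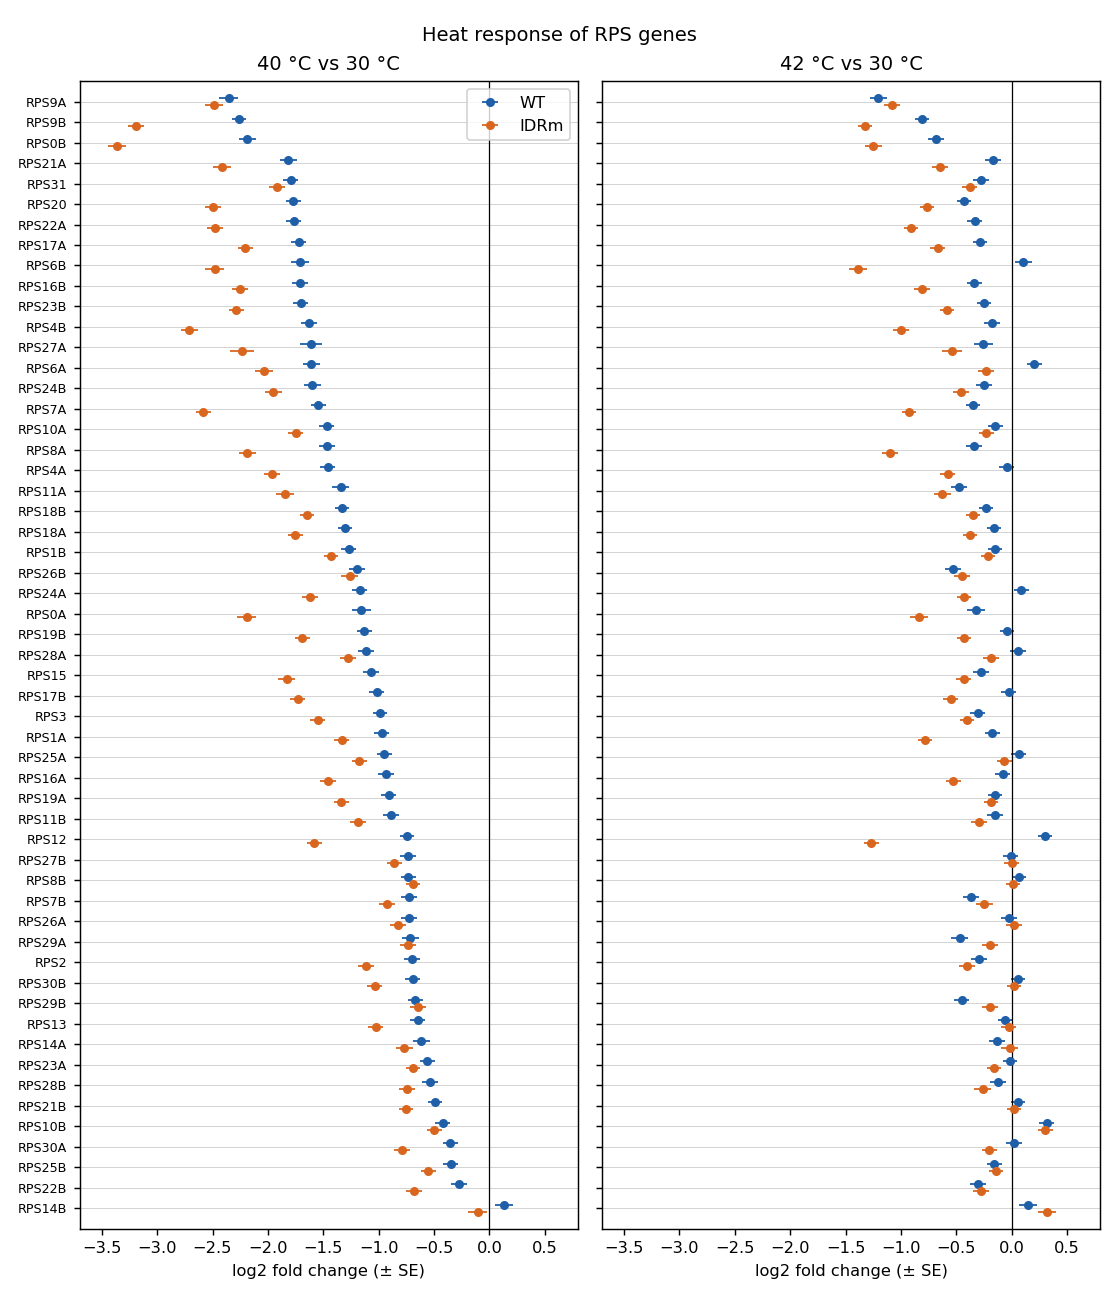
Log2 fold change (horizontal axis, with its SE) of 55 of the 56 RPS genes at 40 °C (left) and 42 °C (right) against 30 °C, in WT and IDRm, with genes ordered by the change in WT at 40 °C. At 40 °C the WT values run from -2.35 for RPS9A to 0.13 for RPS14B, and at 42 °C RPS12 and RPS6B lie at 0.30 and 0.10 in WT but at -1.27 and -1.39 in IDRm.

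At 42 °C in WT the same genes were close to their 30 °C level. The edgeR test called 32 members lower and 3 higher than at 30 °C, where 63.6% of all tested genes were called, 30.0% higher and 33.6% lower, and the median member change was -0.17. The lowest were again RPS9A at -1.20 ± 0.08 (adjusted p 3.89e-15), RPS9B at -0.81 ± 0.06 (9.51e-13) and RPS0B at -0.69 ± 0.07 (9.43e-10). RPS10B and RPS12, which encode proteins of the head and its beak, were higher by 0.31 ± 0.07 (adjusted p 0.000111) and 0.30 ± 0.06 (0.000154). RPS6A, a copy of the protein phosphorylated downstream of TORC1, was higher by 0.20 ± 0.07 (adjusted p 0.0125), and this call ended without the second WT library at 30 °C (adjusted p 0.199) or the first at 42 °C (0.141). RPS6A was at 608 and 542 CPM at 30 °C and at 691 and 636 CPM at 42 °C.

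Of the mRNA-path genes in WT at 42 °C, RPS3 was at 3330 and 3450 CPM, a change of -0.31 ± 0.07 from 30 °C (edgeR adjusted p 0.000141). RPS2 was at 1715 and 2008 CPM, a change of -0.30 ± 0.07 (adjusted p 0.000667). Both genes stayed below their 30 °C libraries. RPS31 changed by -0.28 ± 0.07 (0.000779), RPS22A by -0.34 ± 0.07 (4.03e-05), RPS22B by -0.31 ± 0.07 (0.000364) and RPS26B by -0.53 ± 0.07 (9.12e-08). RPS26A, RPS28A and RPS28B were not called, with values of -0.03 ± 0.07, 0.05 ± 0.07 and -0.12 ± 0.07 and overlapping libraries.

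Between the heated WT groups, 54 members were higher at 42 °C than at 40 °C and none was lower, where 59.2% of tested genes were called, 29.8% higher and 29.4% lower, by the edgeR test. The median difference was 1.00. RPS6A and RPS6B had the largest differences, both 1.81 ± 0.08 (adjusted p 2.31e-19 and 2.32e-18), with RPS21A at 1.65 ± 0.08 (2.24e-18). The uncalled members were RPS14B, at 0.01 ± 0.08, and RPS22B, at 286 and 301 CPM at 40 °C and 279 and 296 CPM at 42 °C. The RPS22B difference of -0.03 ± 0.07 became a called 0.27 when library size alone was used for scaling, which moved the median of all tested genes to 0.30 in this comparison.

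In IDRm at 40 °C the fall was deeper. The edgeR test called 55 of 56 members lower than at 30 °C and none higher, where 77.3% of tested genes were called, 37.4% higher and 39.9% lower. The median was -1.60, against 0.01 over all tested genes. By fold, 41 members fell at least 2-fold and 17 at least 4-fold, and the shares of all tested genes past these cutoffs are not given. RPS0B was lowest, going from 2321 and 2270 CPM to 216 and 230 CPM, a change of -3.36 ± 0.08 (adjusted p 1.31e-26), followed by RPS9B at -3.19 ± 0.07 (1.31e-27). RPS4B (YHR203C, chrVIII:504476-505530), a copy of a body protein that shares 63.1% of its 28-base words with RPS4A, went from 1158 and 1125 CPM to 175 and 174 CPM, by -2.71 ± 0.08 (8.38e-25). RPS14B was again the uncalled member, at 233 and 236 CPM and 211 and 224 CPM, a difference of -0.11 ± 0.08 (adjusted p 0.232).

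The mRNA-path genes fell in IDRm as well. RPS3 went from 4093 and 4011 CPM at 30 °C to 1362 and 1403 CPM at 40 °C, by -1.55 ± 0.07 (edgeR adjusted p 4.55e-20). RPS2 went from 2245 and 2186 CPM to 1004 and 1043 CPM, by -1.11 ± 0.07 (4.28e-15). In both genes the IDRm libraries at 40 °C also lay below both WT libraries at 40 °C. RPS9A fell by -2.49 ± 0.08 (4.4e-23), RPS22A by -2.48 ± 0.07 (4.45e-25) and RPS31 by -1.92 ± 0.07 (7.8e-22). RPS28A, RPS26B, RPS26A, RPS28B and RPS22B fell by -1.28, -1.26, -0.82, -0.74 and -0.68, with an SE of 0.07 each and adjusted p-values of at most 4.11e-10. The smallest called falls were those of RPS25B, at -0.55 ± 0.07 (8e-09), and RPS10B, at -0.50 ± 0.07 (4.24e-08).

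At 42 °C in IDRm 45 members were lower and 2 were higher than at 30 °C, where 73.5% of tested genes were called, 36.8% higher and 36.7% lower, by the edgeR test, with a median member change of -0.39. The lowest were RPS6B at -1.39 ± 0.08 (adjusted p 3.2e-16), RPS9B at -1.32 ± 0.06 (2.71e-18) and RPS12 at -1.27 ± 0.07 (1.51e-17). The higher members were RPS10B, at 995 and 1003 CPM against 1216 and 1250 CPM (0.30 ± 0.07, adjusted p 0.000122), and RPS14B, at 233 and 236 CPM against 267 and 317 CPM (0.32 ± 0.08, adjusted p 0.000799). The RPS14B call ended without the second IDRm library at 42 °C (adjusted p 0.103), where its log2 difference was 0.18. RPS9A, RPS22A, RPS26B, RPS2, RPS3, RPS31, RPS22B and RPS28B were lower, by values from -1.08 for RPS9A to -0.26 for RPS28B. RPS28A was lower by -0.19 ± 0.07 (adjusted p 0.0189), a call that ended without either IDRm library at 30 °C or the first at 42 °C (0.061 to 0.105), and RPS26A was not called (0.02 ± 0.07, adjusted p 0.822).

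All 56 members were higher at 42 °C than at 40 °C in IDRm, where 54.4% of tested genes were called, 27.3% higher and 27.0% lower, by the edgeR test, with a median difference of 1.15. RPS0B had the largest difference, at 2.11 ± 0.08 (adjusted p 8.81e-20), followed by RPS9B at 1.87 ± 0.07 and RPS6A at 1.80 ± 0.08. RPS12 had the smallest, at 0.31 ± 0.07 (adjusted p 0.000161), with RPS22B and RPS25B at 0.41 ± 0.07 each.

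The strains differed little at 30 °C. The edgeR test called 3 members higher in IDRm and none lower, which is 3 of 56 where 16.3% of all tested genes were called, 9.58% higher and 6.75% lower. RPS28A was at 982 and 911 CPM in WT and at 1185 and 1188 CPM in IDRm, a log2 difference of 0.32 ± 0.07 (adjusted p 0.0014). RPS30A differed by 0.27 ± 0.07 (adjusted p 0.00539) and RPS10B by 0.23 ± 0.07 (0.0142). The count was 1 without the first IDRm library at 30 °C, where the calls of RPS30A (adjusted p 0.074) and RPS10B (0.1) ended, and 6 without the first WT library at 30 °C. The RPS10B call also ended without the second WT library (0.102) or the second IDRm library (0.0866).

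At 40 °C the small subunit was lower in IDRm than in WT. The edgeR test called 39 members lower and 1 higher, where 25.9% of tested genes were called, 11.4% higher and 14.5% lower, with a median member difference of -0.32 against -0.01 over all tested genes. RPS0B, at 501 and 562 CPM in WT and 216 and 230 CPM in IDRm, had the lowest value, -1.25 ± 0.08 (adjusted p 6.25e-14). RPS7A, a copy of a body protein, was at 730 and 778 CPM in WT and at 340 and 333 CPM in IDRm, -1.17 ± 0.07 (8.82e-15), and RPS0A followed at -1.09 ± 0.09 (1.53e-10). RPS9B differed by -0.97 ± 0.07 (9.4e-13) while RPS9A did not pass the test (0.04 ± 0.09, adjusted p 0.785), with 93.0 and 104 CPM in WT and 104 and 99.8 CPM in IDRm. The libraries of RPS9B did not overlap, at 500 and 522 CPM in WT and 265 and 258 CPM in IDRm.

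Of the mRNA-path genes, RPS3 was lower in IDRm at 40 °C by -0.62 ± 0.07 (edgeR adjusted p 1.02e-08) and RPS2 by -0.46 ± 0.07 (1.22e-05), and RPS22A by -0.71 ± 0.07 (1.16e-09). RPS26A was lower by -0.25 ± 0.07 (adjusted p 0.00946), a call that ended without the second WT library or without either IDRm library at 40 °C (0.067 to 0.139). RPS22B was lower by -0.23 ± 0.07 (0.0204), a call that ended without the second WT library (0.162) or the first IDRm library (0.215). RPS26B, RPS28A, RPS28B and RPS31 were not called, with values of -0.12, 0.16, -0.06 and -0.05. The one higher member, RPS8B, shares 79.3% of its 28-base words with RPS8A, and its difference of 0.19 ± 0.07 (adjusted p 0.0366) lost its call without any 1 of the 4 libraries (0.084 to 0.191).

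At 42 °C 23 members were lower and 5 were higher in IDRm, where 41.1% of tested genes were called, 20.7% lower and 20.4% higher, by the edgeR test. The median difference of the members was -0.12. All 23 genes that were lower at 42 °C were also lower at 40 °C, 15 were called lower at 40 °C and not called at 42 °C, and RPS22B was lower at 40 °C and higher at 42 °C. Over the 56 members the strain differences at 40 and 42 °C, which share no library, had a Pearson r of 0.76 and a Spearman rho of 0.85.

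RPS12 (YOR369C, chrXV:1028194-1028625), the single-copy gene of a beak protein, had the largest strain difference at 42 °C. It was at 2470 and 2455 CPM in WT and 2408 and 2439 CPM in IDRm at 30 °C, and at 1417 and 1521 CPM in WT and 800 and 819 CPM in IDRm at 40 °C. At 42 °C it was at 2995 and 3078 CPM in WT and at 981 and 1032 CPM in IDRm. The WT libraries at 42 °C were thus the highest of all 12, while the IDRm libraries at 42 °C remained below every library at 30 °C. The difference at 42 °C was -1.59 ± 0.07 (edgeR adjusted p 1.88e-18). RPS12 shares no 28-base word with another coding sequence.

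RPS6B (YBR181C, chrII:591712-592774) followed, with 503 and 534 CPM in WT and 201 and 208 CPM in IDRm at 42 °C, a difference of -1.34 ± 0.08 (edgeR adjusted p 9.73e-15). At 30 °C it was at 524 and 437 CPM in WT and at 525 and 546 CPM in IDRm, and at 40 °C at 138 and 155 CPM in WT and at 97.6 and 94.1 CPM in IDRm. At 30 °C both WT libraries lay below both IDRm libraries, a difference that was not called (0.15 ± 0.08, adjusted p 0.199), and at both higher temperatures the IDRm libraries lay below the WT libraries. Its copy RPS6A was at 691 and 636 CPM in WT and at 549 and 521 CPM in IDRm at 42 °C. The split between the RPS6 copies rests on the 18.9% of 28-base words that are not shared, and the sum of both copies was lower in IDRm at 42 °C by -0.68 ± 0.07 (adjusted p 1.9e-09).

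The members higher in IDRm at 42 °C were both RPS29 copies, which encode a small zinc-binding head protein, with RPS9A, RPS10B and RPS22B. RPS29B (YDL061C, chrIV:340628-340798) was at 571 and 620 CPM in WT and at 768 and 789 CPM in IDRm, a difference of 0.39 ± 0.07 (edgeR adjusted p 3.12e-05). RPS29A (YLR388W, chrXII:898651-898821) was at 412 and 474 CPM in WT and at 576 and 578 CPM in IDRm, a difference of 0.38 ± 0.07 (9.73e-05). RPS9A was at 220 and 219 CPM in WT and at 274 and 266 CPM in IDRm, a difference of 0.30 ± 0.08 (0.00249). In these genes both IDRm libraries lay above both WT libraries. The RPS10B difference of 0.22 ± 0.07 (adjusted p 0.00721) lost its call without the first WT library (0.109) or the second IDRm library (0.076), and that of RPS22B, 0.21 ± 0.07 (0.0215), without the first WT library or either IDRm library at 42 °C (0.061 to 0.153). RPS22A and RPS9B were lower, at -0.57 ± 0.07 (1.77e-08) and -0.55 ± 0.06 (1.79e-08), and RPS2, RPS3, RPS26A, RPS26B, RPS28A, RPS28B and RPS31 were not called, at values from -0.16 to 0.09.

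**Figure D3:**
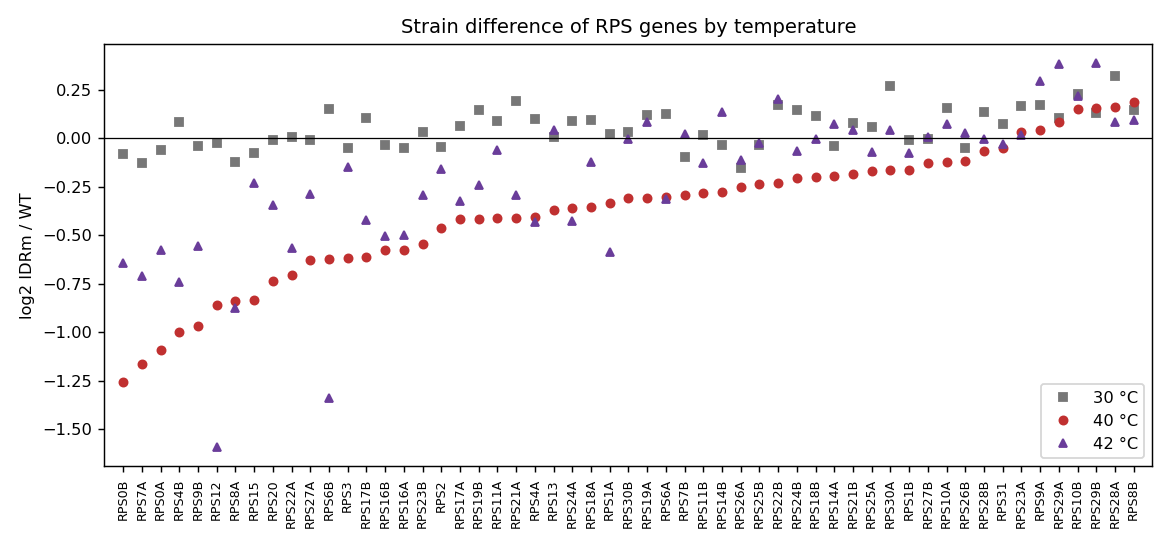
Log2 difference between IDRm and WT (vertical axis) of 55 of the 56 RPS genes at 30, 40 and 42 °C, ordered by the value at 40 °C. At 40 °C the values run from -1.25 for RPS0B to 0.19 for RPS8B, and at 42 °C RPS12 and RPS6B lie apart from the rest at -1.59 and -1.34.

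The difference between the strains' heat responses was tested directly as an interaction in the edgeR fit. For 40 against 30 °C, 36 members fell further in IDRm and none fell further in WT past the threshold, where 12.3% of tested genes were called, 3.81% higher and 8.52% lower, with a median of -0.42. By value 54 of 56 fell further in IDRm. The share of all tested genes that did so is not given, and their median in this interaction was -0.01. RPS0B and RPS4B had the lowest values, -1.18 ± 0.11 (adjusted p 1.26e-09) and -1.08 ± 0.11 (5.62e-09), followed by RPS7A at -1.04 ± 0.09 (1.16e-09), RPS0A at -1.03 ± 0.12 (5.44e-07) and RPS9B at -0.93 ± 0.09 (9.79e-09). RPS12 was at -0.84 ± 0.09 (6.54e-08) and RPS6B at -0.77 ± 0.12 (2.68e-05), and among the fixed genes RPS22A was at -0.71 ± 0.09 (1.7e-06) and RPS3 at -0.56 ± 0.09 (4.72e-05). RPS2 at -0.41 ± 0.10 (0.00549) lost its call without the second WT library at 40 °C (0.072), and RPS22B at -0.40 ± 0.10 (0.00601) without the first IDRm library at 40 °C (0.065). RPS26A, RPS26B, RPS28A, RPS28B, RPS9A and RPS31 were not called (-0.20 to -0.07), and the highest values were those of RPS8B, 0.04 ± 0.09, and RPS29B, 0.02 ± 0.10.

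For 42 against 30 °C, 21 members were lower and 2 higher in this interaction, where 27.4% of tested genes were called, 16.1% lower and 11.4% higher, with a median of -0.15. RPS12 and RPS6B were lowest at -1.57 ± 0.09 (edgeR adjusted p 3.22e-14) and -1.49 ± 0.11 (4.93e-12). RPS22A and RPS9B were also lower, at -0.57 ± 0.09 (1.31e-05) and -0.51 ± 0.09 (4.76e-05). RPS29A and RPS29B were higher, at 0.28 ± 0.10 (0.0463) and 0.26 ± 0.10 (0.0483), and both calls ended without any 1 of the following libraries: the first WT library at 30 °C, the first WT library at 42 °C, and each IDRm library at 30 or 42 °C. The remaining genes described in every library (RPS2, RPS3, RPS9A, RPS22B, RPS26A, RPS26B, RPS28A, RPS28B and RPS31) were not called, at -0.24 to 0.12.

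For 42 against 40 °C, 14 members were higher and 2 lower in the interaction, where 10.1% of tested genes were called, 6.24% higher and 3.85% lower, with a median of 0.20. The lower genes were RPS12 at -0.73 ± 0.09 (edgeR adjusted p 1.82e-06) and RPS6B at -0.72 ± 0.13 (0.000223). The highest were RPS0B at 0.61 ± 0.11 (0.000246) and RPS15, the gene of a head protein that reaches toward the decoding site, at 0.60 ± 0.10 (0.000135). RPS15 was at 1193 and 1247 CPM at 40 °C and 1980 and 2246 CPM at 42 °C in WT, and at 681 and 686 CPM and 1810 and 1788 CPM in IDRm. These 3 interactions share libraries and are not independent of each other.

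**Figure D4:**
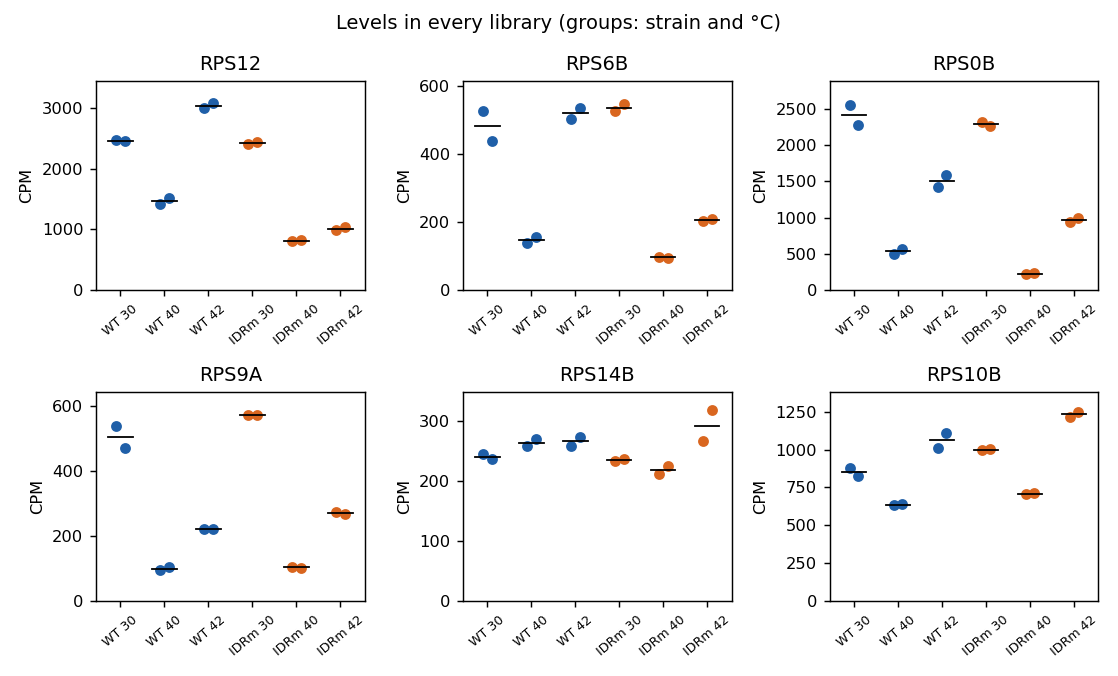
Level in CPM (vertical axis, from 0) of RPS12, RPS6B, RPS0B, RPS9A, RPS14B and RPS10B in every library, by strain and temperature in °C; points are libraries and lines the means of 2. RPS12 at 42 °C lies at 2995 and 3078 CPM in WT and at 981 and 1032 CPM in IDRm, and RPS14B stays between 211 and 317 CPM in all 12 libraries.

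Summing the A and B copies removes the question of how reads were split. In the same edgeR fit on a table with these sums, all 24 pairs were lower at 40 °C than at 30 °C in WT and in IDRm, where 75.3% and 77.1% of the rows of that table were called. RPS9 was the lowest sum in both strains, at -2.28 ± 0.07 in WT and -3.04 ± 0.07 in IDRm, and RPS14 and RPS30 were highest in WT at -0.52 ± 0.07 each. At 42 °C 11 sums were lower and RPS6 was higher than at 30 °C in WT, and 18 were lower in IDRm, where 63.7% and 73.2% of rows were called. The RPS6 sum differed by 0.16 ± 0.07 (adjusted p 0.0459), a call that ended without the second WT library at 30 °C (0.594), either WT library at 42 °C (0.154 and 0.0655) or the filter (0.116). All 24 were higher at 42 °C than at 40 °C in both strains (59.0% and 54.2% of rows called). Between the strains, 18 sums were lower in IDRm at 40 °C (25.7% of rows called), and 11 were lower and RPS29 was higher, by 0.38 ± 0.07, at 42 °C (41.0% called). At 30 °C RPS28 and RPS10 were higher in IDRm (16.3% called), by 0.27 ± 0.07 (adjusted p 0.0075) and 0.19 ± 0.07 (0.042), and both calls ended without the second WT library or either IDRm library at 30 °C (0.0576 to 0.209). The RPS10 call also ended without the first WT library (0.0701) or the filter (0.0634). In the interactions, 14 sums were lower in IDRm for 40 against 30 °C (12.1% of rows called), 13 were lower for 42 against 30 °C (27.1%) and 3 were higher for 42 against 40 °C (9.90%).

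Within most pairs, the balance between the copies differed by value between 40 and 30 °C. The share of copy A in the sum of both was compared between the 4 libraries at 40 °C and the 4 at 30 °C, both strains together, by a two-sided exact permutation test with Benjamini-Hochberg adjustment over the 24 pairs. The share differed in 21 pairs, up in 10 and down in 11, each with no overlap between the temperatures. No share over other gene pairs is given beside it, so the count cannot be read as particular to RPS pairs. Each of the 21 had the smallest p that 4 against 4 libraries allow, 0.0286, adjusted to 0.0327. At that floor the p does not grade the pairs by the size of their shift. The permutation also took no account of strain or of cultures that may be shared. With a replicate block the smallest p of the permutation test is 0.125, so no pair could be called. The pairs not called without the block were RPS9, RPS18 and RPS29. For RPS9 the strains differed by value. Its share went from 17.7% and 16.4% to 15.7% and 16.6% in WT, and from 19.0% and 19.7% to 28.2% and 27.9% in IDRm. That difference between the strains was not tested on the share. The sign was the same in both strains in 22 pairs.

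The largest rises of copy A were in RPS23, RPS0 and RPS16. RPS23 encodes a protein of the decoding centre, and its copy A share was 41.9%, 42.6%, 44.7% and 44.2% at 30 °C and 62.6%, 61.1%, 71.0% and 70.6% at 40 °C, with the WT libraries first. The RPS0 share was 43.6%, 44.2%, 44.1% and 44.3% at 30 °C and 61.4%, 61.5%, 64.3% and 63.9% at 40 °C. The RPS16 share, for a protein whose tail contacts the P-site tRNA, was 47.2%, 47.3%, 46.9% and 46.9% at 30 °C and 60.7%, 60.3%, 60.4% and 60.7% at 40 °C. In percentage points the mean shifts were 22.9, 18.8 and 13.4.

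The largest falls of copy A were in RPS21, RPS22 and RPS10. The RPS21 share, for a protein needed for rRNA maturation, was 43.4%, 44.9%, 46.2% and 46.0% at 30 °C and 23.0%, 24.8%, 22.01% and 20.4% at 40 °C. The RPS22 share, for a protein of the body, was 85.2%, 85.2%, 84.0% and 83.3% at 30 °C and 67.5%, 66.9%, 61.4% and 57.6% at 40 °C. The RPS10 share was 62.6%, 63.5%, 62.1% and 61.7% at 30 °C and 44.0%, 46.3%, 41.0% and 40.0% at 40 °C. The mean shifts were -22.6, -21.1 and -19.6 percentage points. Of these 6 pairs RPS23 shares 36.5% of its 28-base words between copies and the other 5 share 3.55% to 8.89%.

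At 42 °C no pair passed the adjusted threshold in the exact permutation test. In 13 pairs the libraries at 42 and 30 °C did not overlap, with an unadjusted p of 0.0286 and an adjusted p of 0.0527. No share over other gene pairs is given beside this count either, so it cannot be read as particular to RPS pairs. As 0.0286 is the smallest p possible, the adjusted value depends on how many of the 24 pairs reach it. With 13 at that floor no pair could pass, whatever its shift, so the missing calls do not show an unchanged balance. The RPS0 share was 48.9%, 51.2%, 50.8% and 51.7% at 42 °C, above its 30 °C values and below its 40 °C values. RPS6 moved apart by strain at 42 °C, with a copy A share of 57.9% and 54.4% in WT and 73.2% and 71.5% in IDRm, a difference in strain that was not tested on the share.

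**Figure D5:**
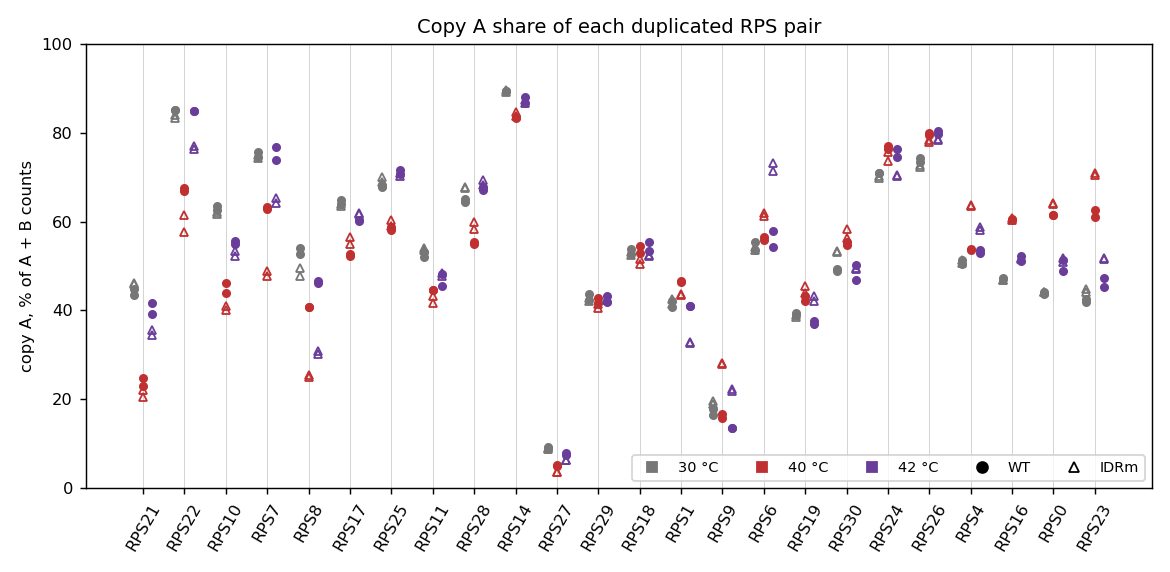
Share of copy A in the summed counts of each duplicated RPS pair, in percent (vertical axis), in every library at 30, 40 and 42 °C, with filled circles for WT and open triangles for IDRm; pairs are ordered by the mean shift at 40 °C. The shift at 40 °C runs from -22.6 percentage points for RPS21 to 22.9 for RPS23, and the shares at 42 °C lie between those at 30 and 40 °C in RPS0, RPS23, RPS21 and RPS10.

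Levels can be compared between genes only per length, here as CPM per kilobase of coding sequence with both copies added. Over the 32 proteins the SD of the log2 level in WT was 0.54, 0.76 and 0.56 at 30, 40 and 42 °C. In IDRm it was 0.55, 0.91 and 0.73. The proteins of a single particle were thus footprinted most unevenly at 40 °C in both strains, as a description with no test. RPS6 was the lowest protein in all 6 groups, at 1485 CPM per kilobase in WT at 30 °C and 350 in IDRm at 40 °C. RPS29 was the highest at 40 °C, at 5181 in WT and 5660 in IDRm. The ratio of the highest to the lowest protein was 5.62 in WT at 30 °C, 11.0 in WT at 40 °C and 16.2 in IDRm at 40 °C. The level of RPS6, whose copies share 81.1% of their 28-base words, may be too low if reads that match both copies were dropped, which is not known. Over the 21 proteins whose genes share under 20% of these words, a set chosen after the data were seen, the ratios were 2.79, 5.003 and 9.19. The SD of the log2 level was then 0.31, 0.57 and 0.44 at 30, 40 and 42 °C in WT and 0.36, 0.83 and 0.63 in IDRm, again widest at 40 °C.

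Single genes changed their order with heat. RPS20 was at 6215 CPM per kilobase in WT at 30 °C, and RPS13 and RPS27B were the highest genes there at 40 °C, at 3876 and 3412 CPM per kilobase. RPS12 was highest in WT at 42 °C, at 7028 CPM per kilobase. RPS27A and RPS14B were the lowest in both strains at 30 °C, at 556 and 576 CPM per kilobase in WT. The changes at 40 °C had a Pearson r of 0.94 between WT and IDRm over the 56 members, and those at 42 °C had 0.48. No library was shared between these comparisons, and all members of a comparison share its libraries and scaling.

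Features that the choice of genes did not use were set beside the changes as descriptions. A coding intron was present in 36 members, and in 318 of 6008 genes with a coding sequence. It was read as a coding sequence annotated in several parts, without a check of what lies between them. Members with one had a median change at 40 °C of -1.24 in WT and -1.74 in IDRm, and the 20 members without one had -0.98 and -1.31. Members assigned to the head of the subunit had medians of -1.04 in WT and -1.61 in IDRm, and those of the body and platform -1.18 and -1.52. Single-copy genes had a median of -1.03 in WT, A copies -1.24 and B copies -0.95. Coding length had a Pearson r of -0.38 with the change at 40 °C in WT, -0.46 in IDRm and -0.50 with the strain difference at 40 °C.

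The Rap1 motif ACCCNNACA occurred within the 500 bases before the start codon, on either strand, in 18 of 56 members (32.1%) and in 329 of 6014 annotated genes (5.47%). The windows below, of RPS0A, RPS7A and RPS11B, show it in capitals as examples, on the strand of the gene and in the R64 reference. RPS7A and RPS11B each carry 2 matches close together.
RPS0A, chrVII:920082-920110, plus strand: atattaaaaaACCCAGACAtaaagaaaaa
RPS7A, chrXV:505294-505322, plus strand: aaACCCATACAcaatgaaccttatcacac
RPS7A, chrXV:505311-505339, plus strand: accttatcacACCCAAACAtatgatatgg
RPS11B, chrII:332517-332545, plus strand: tccttgctgcACCCATACAattctaaacc
RPS11B, chrII:332533-332561, plus strand: acaattctaaACCCAAACAtgtttcccgc

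The 18 members with the Rap1 motif had a median change at 40 °C of -1.09 in WT and -1.68 in IDRm, and the 38 without it had -1.12 and -1.57. The Fhl1 motif GACGCA was found in 6 members (10.7%) and in 10.9% of all genes. The Hsf1 motif GAANNTTC was found in 18 members (32.1%) and 19.1% of all genes, and the Msn2 motif AGGGG in 13 members (23.2%) and 34.0% of all genes. Members with the Hsf1 motif had a median change at 40 °C of -1.40 in WT and those without it -0.96, and members with and without the Msn2 motif had -1.07 and -1.13. A match describes letters in a window and not a bound site, and none of these motif differences was tested.

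Genes that act on small-subunit proteins were read from lists. Of all tested genes, 36.1% were higher and 39.5% lower at 40 °C in WT, 37.4% and 39.9% in IDRm, and 11.4% higher and 14.5% lower in IDRm than in WT at 40 °C. Of 10 late 40S maturation factors all were lower at 40 °C than at 30 °C in both strains by the edgeR test, with medians of -2.35 in WT and -2.86 in IDRm. PNO1, ENP1 and DIM1, the last being the 18S rRNA dimethylase, changed by -3.32, -3.24 and -2.83 in WT. None of the 10 was called between the strains at 40 °C, while 9 were higher in IDRm at 30 °C, where 9.58% of tested genes were called higher. Whether these 9 calls hold without 1 library was not examined, and strain calls at 30 °C over all genes depended on single libraries. LTV1 and FAP7 are on this list and also on the next. Of 10 chaperones and modifiers of RPS proteins, 9 were lower and 1 was higher at 40 °C in WT, among them the arginine methyltransferase HMT1 (-4.13), the Rps26 chaperone TSR2 (-2.99) and the Rps23 hydroxylase TPA1 (-2.85), and 1 was lower and 1 higher in IDRm than in WT at 40 °C, near the shares over all tested genes.

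Of 11 regulators of ribosomal protein genes, 4 were higher and 6 lower at 40 °C in each strain, and the higher share was near the 36.1% and 37.4% of all tested genes. DOT6, a repressor of ribosome biogenesis genes, changed by 0.81 ± 0.10 in WT and 1.01 ± 0.10 in IDRm, and STB3, also a repressor, by 0.47 ± 0.13 and 0.56 ± 0.14. TOD6, the paralog of DOT6, changed by -2.62 ± 0.16 in WT, FHL1 by -1.42 ± 0.17 and SCH9, a kinase below TORC1, by -1.19 ± 0.10, all called by the edgeR test. ASC1, a 40S protein without an RPS name, changed by -1.04 ± 0.07 in WT and -1.53 ± 0.07 in IDRm, and was lower in IDRm at 40 °C by -0.51 ± 0.07 (adjusted p 6.05e-07). STM1, which binds idle ribosomes, changed by -0.80 ± 0.07 in WT and -2.12 ± 0.07 in IDRm, and was lower in IDRm by -1.33 ± 0.07 at 40 °C (7.35e-16) and -0.96 ± 0.07 at 42 °C (4.77e-13). Of 81 tested genes of the large subunit, 76 were lower at 40 °C in WT (39.5% of all tested genes were) and 53 were lower in IDRm than in WT at 40 °C (14.5% of all), with medians of -1.21 and -0.36.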

How the data were processed

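Counts of ribosome footprints per gene were used as deposited by the authors, as whole numbers without normalization for 12 libraries. Per the submitters' processing notes, bcl2fastq 2.17.1.14, cutadapt 1.17, Bowtie2 2.2.6, STAR 2.5.2b and the build R64 were used. What each did, the strand setting, the counting rule and the treatment of multiply matching reads are not given in the sources read. Of 6697 identifiers, the R64 annotation holds 6014, and the other 683 held 0.0400% to 0.112% of a library's counts.

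Genes with enough counts (filterByExpr, minimum count 10 and total 15) were scaled by TMM and tested with the quasi-likelihood test of edgeR 4.0.16 in R 4.3.3, with 1 mean per group over all 12 libraries. Benjamini-Hochberg adjustment was over 5719 genes in each of 12 comparisons, with a threshold of 0.05, and each comparison was adjusted on its own. The fit was tested on simulated data. An SE was obtained from the log2 change and the F statistic of its test. CPM were computed on the scaled library sizes, and their SD is over 2 libraries. At the library totals of 3429950 to 7851819 counts, every member held enough counts to be tested. Copy shares were compared by an exact permutation test.

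The members and all lists were chosen with earlier results of these data known. Values are given in every library for the 3 lowest and 3 highest members of a heat comparison, the 2 lowest and 2 highest of a strain comparison, called members that go against the majority, and 12 fixed genes of the mRNA path and of pairs, some of them by their change alone. Of the members, 1 enters every count but is not reported here by itself. Alternatives were DESeq2 1.42.0 (size factors and Wald test), library size alone, no filter, the libraries of a comparison alone, a replicate block, members with little shared sequence, and leaving out each library.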

Additional observations from a re-analysis of the deposited data

Results flagged for a closer look

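Heat responses of several members differed between the strains in the direct test of the difference, by edgeR with Benjamini-Hochberg adjustment over all tested genes, and were among the lowest or highest members or went against the majority. RPS0B and RPS4B fell further in IDRm than in WT from 30 to 40 °C, by log2 differences of -1.18 ± 0.107 (SE, adjusted p 1.26e-09) and -1.08 ± 0.106 (5.62e-09). From 30 to 42 °C RPS12 and RPS6B were lower in IDRm by -1.57 ± 0.0927 (3.22e-14) and -1.49 ± 0.112 (4.93e-12), while RPS29A and RPS29B were higher by 0.28 ± 0.104 (0.0463) and 0.26 ± 0.0978 (0.0483). Between 40 and 42 °C the differences were -0.73 ± 0.0932 for RPS12 (1.82e-06), -0.72 ± 0.126 for RPS6B (0.000223), 0.60 ± 0.101 for RPS15 (0.000135) and 0.61 ± 0.108 for RPS0B (0.000246). RPS4B and RPS6B share most of their 28-base words with their A copies, and the part of that in their values was not tested.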

How the results depend on the processing

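Of 2112 recomputed values over 192 combinations of a named member and a comparison, 2025 kept their direction and side of the threshold, 59 lost a call, 27 gained one and 1 reversed. The reversal was RPS22B between 42 and 40 °C in WT, at -0.03 (not called) and 0.27 with library size alone. Library size alone moved the median of all tested genes to -0.26 (WT, 40 against 30 °C), 0.30 (WT, 42 against 40 °C), -0.22 and 0.22 (the same in IDRm) and -0.11 (strains at 42 °C), and the RPS medians were then -1.37, 1.30, -1.83, 1.36 and -0.22. The cause was not tested.

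Only 34 members share under 20% of their 28-base words. Counting them alone leaves 34 calls for 40 against 30 °C in either strain, 33 and 34 for 42 against 40 °C in WT and IDRm, 28 for 42 against 30 °C in IDRm, 22 and 18 between strains at 40 and 42 °C, and 18 and 13 for the interactions at 40 and 42 °C against 30 °C, as fewer genes are counted. Between strains at 30 °C, 3 members were called, 5 with DESeq2 size factors or library size alone, and 1 to 6 without 1 library (1 without the first IDRm library, 6 without the first WT library). There 2 pair sums were called, 1 without a filter and 0 to 2 without 1 library (1 without the second WT library, 0 without either IDRm library), and at 42 °C 12 were called and 19 with library size alone. Without 1 library, the other member counts ranged over 55 to 55 and 55 to 55 (40 against 30 °C, WT and IDRm), 26 to 39 and 41 to 46 (42 against 30 °C), 51 to 54 and 56 to 56 (42 against 40 °C), 30 to 38 and 24 to 29 (strains at 40 and 42 °C), and 27 to 37, 21 to 25 and 12 to 23 (interactions).

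Over all genes, strain calls at 30 °C numbered 934, against 581 from those libraries alone, 494 by the DESeq2 Wald test, and 576 and 367 without the first WT or the first IDRm library. At 40 °C they numbered 1484, against 929 by DESeq2 and 865, 980 and 848 without the second WT, first IDRm or second IDRm library. Interaction calls numbered 705 for 40 against 30 °C (459 by DESeq2, 426 without the second WT library at 40 °C) and 577 for 42 against 40 °C (291 by DESeq2; without 1 library as few as 262, without the first IDRm library at 40 °C).

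Replicate numbers were not shown to pair the libraries: within a strain, deviations of same-numbered libraries correlated at -0.05 to 0.13, and between strains at -0.25 (WT at 40 °C with IDRm at 30 °C) to 0.26 (both at 42 °C, where it was 0.56 over the RPS genes). With the replicate block the member counts were 55, 34 and 54 in the WT heat comparisons, 55, 47 and 56 in IDRm, 3, 40 and 28 between strains, and 36, 22 and 18 in the interactions. In the copy share test the block left 0 of 21 pairs called at 40 °C, since its smallest p is 0.125. Leaving out 1 library was not run there. Every member passed the filter on low counts, and the effect of depth on the calls was not tested.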
